A study of Oreochromis niloticus with 6 samples.

Results

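The genes described here encode protease inhibitors and their relatives in the liver of Nile tilapia (Oreochromis niloticus). They were chosen by symbol alone, as names that begin with serpin, a2m, itih, ambp, timp, cst, spint, fetub, ahsg or wfdc, and they number 38 gene IDs with 42 transcripts among 26490 gene IDs in all. Serpins gave 18 of these gene IDs, cst names 6, itih and timp names 4 each, spint and fetub names 2 each, and ambp and wfdc names 1 each, while no gene carried a symbol beginning with a2m or ahsg. The pattern also took cstf1, cstf2 and cstf3, which belong to the machinery that cleaves the 3′ end of mRNA and are not protease inhibitors.

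Protease inhibitors of blood plasma are made mainly by hepatocytes and are secreted in large amounts. Most serpins trap a serine protease by offering a loop as bait, which the protease cuts and then cannot leave, so that thrombin, plasmin and the proteases of early complement are held in check. The bikunin and inter-alpha-trypsin inhibitor chains, the fetuins and cystatins, and the tissue inhibitors of metalloproteinases (TIMPs) use other folds against other protease classes, and some serpins, such as the collagen chaperone serpinh1, inhibit no protease at all.

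The fish were wild-type male juveniles of the GIFT strain, a line selected for growth, kept in tanks of circulating water for 56 days. A high-fat diet (HFD, 18.5% lipid) was fed in one group and a normal-fat diet (NFD, 8% lipid) in the other, both to apparent satiation, and each group gave 3 liver libraries after depletion of ribosomal RNA. The labels call these biological replicates but also say that RNA of several samples per group was mixed, so p-values here reflect how libraries vary, and part of that variation may be technical. Values are FPKM, fragments scaled to transcript length and to the fragments of the library, summed over the transcripts of a gene ID. Depth in reads is unknown, and fewer cells of a type cannot be told apart from less RNA per cell in whole liver.

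The summed FPKM of all mRNA transcripts was between 141024 and 170847 per library. Of 15 hepatocyte markers in the table, 2 of which (serpinc1 and ambp) are also inhibitors described here, none was at 0 in all libraries, and their sum was between 3688 and 4650 FPKM in HFD and between 5005 and 10125 in NFD. The 9 exocrine pancreas markers, a tissue that lies within the liver of many fish, summed to between 4608 and 17783 FPKM in HFD and between 3921 and 16536 in NFD. Macrophage and granulocyte markers (9 genes, with LYZ making up most of the sum) summed to between 396 and 419 FPKM in HFD and between 276 and 843 in NFD, and endothelial markers (9 genes) to between 13.1 and 19.2 and between 9.20 and 17.2. Stromal and stellate markers (8 genes) summed to between 4.81 and 12.9 FPKM in HFD and between 3.98 and 7.51 in NFD, and erythrocyte markers (4 genes, alas2 at 0 in every library) to at most 1.49.

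Inhibitor transcripts held a similar mean share of the mRNA table in both diets, and between 1.67% and 2.26% of its summed FPKM in single libraries. The lncRNA table is not part of that sum. All 38 gene IDs together summed to 3000 ± 170 FPKM for HFD and 3122 ± 275 for NFD (mean ± SD over 3 libraries per diet), which was 1.998% ± 0.299 and 1.99% ± 0.271 of the summed FPKM of the mRNA table. Levels ran over several orders of magnitude. There were 5 gene IDs with a mean of 100 FPKM or more over all libraries, 3 between 10 and 100, 10 between 1 and 10, and 20 under 1. The first 5 (ambp, serpind1, fetub, serping1 and serpinc1) made up between 92.8% and 96.3% of the inhibitor sum in each library. Ambp ranked 30 and serpind1 ranked 31 among all 26490 gene IDs by mean FPKM, fetub 42, serping1 57 and serpinc1 108.

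**Figure D1:**
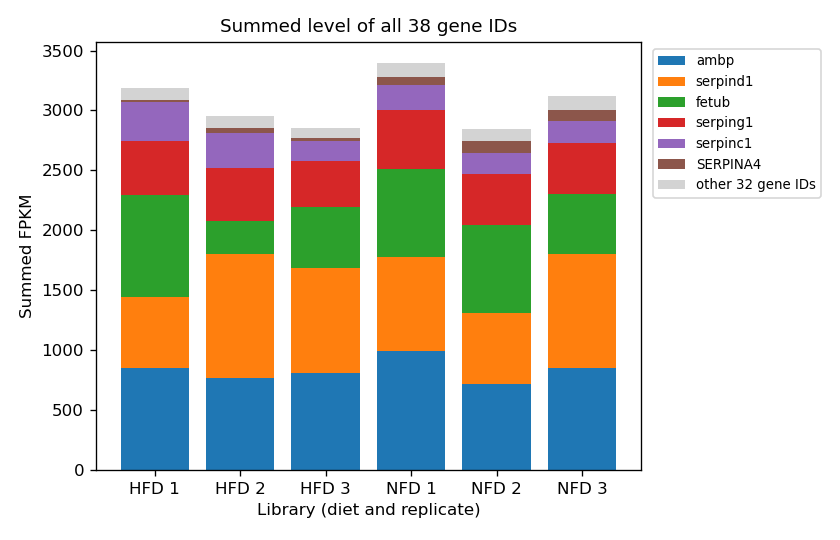
Stacked bars give the summed FPKM of all 38 gene IDs in each library, on a linear axis from 0, with the 6 most abundant in colour and the other 32 in grey. The total lies between 2848 and 3398 FPKM with no separation by diet, while the share of SERPINA4 is thinner in the 3 HFD bars.

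The test took genes with 0.5 FPKM or more in 3 or more libraries, which 20 of the 38 gene IDs met. Over all 9204 genes tested with limma, 0 (0% of those tested) had an adjusted p under 0.05 after Benjamini-Hochberg adjustment, and 554 (6.02%) had an unadjusted p under 0.05. None of the 20 inhibitor genes had an adjusted p under 0.05, and 1 of them, SERPINA4, had an unadjusted p under 0.05, lower in HFD as were 3.35% of all genes, while 2.67% were higher at that level. The 3 libraries of one diet lay wholly apart from those of the other for 2 of the 20, SERPINA4 and serpinf2a, both lower in HFD. That was 10% of the 20, against 11.6% of all genes tested (5.48% higher and 6.15% lower in HFD), so the share lies near the background. Without cstf1, cstf3 and MSTRG.28473, a gene ID that serpine2 shares with a protease gene, the count was 2 of 17. The median log2 fold change, HFD minus NFD on log2(FPKM + 0.5), was -0.07 over the 20 and 0.0031 over all genes, with 12 of the 20 below 0.

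**Figure D2:**
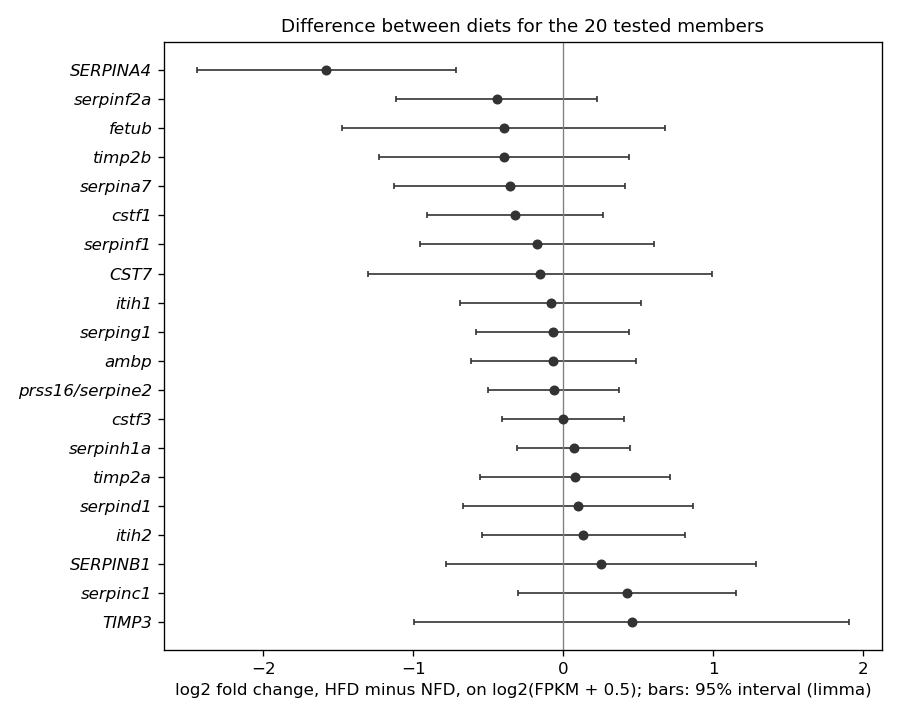
Points give the log2 fold change (HFD minus NFD, on log2(FPKM + 0.5)) of the 20 tested genes and bars the 95% interval from limma. SERPINA4 stands at -1.58 with an interval from -2.45 to -0.72, and the intervals of the other 19 include 0.

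SERPINA4 (MSTRG.4618) showed the widest gap between diets of the 20. In humans SERPINA4 encodes kallistatin, a plasma serpin that inhibits tissue kallikrein. It was at 19.8, 42.0 and 26.4 FPKM in HFD replicates 1, 2 and 3, and at 60.8, 103 and 97.4 FPKM in NFD replicates 1, 2 and 3. Every HFD library lay below every NFD library, with HFD replicate 2 and NFD replicate 1 nearest to each other. The means were 29.4 ± 11.4 and 87.2 ± 23.0 FPKM (SD over 3 libraries per diet), a 2.96-fold lower mean level in HFD. The log2 fold change was -1.58 ± 0.36 SE, with an unadjusted p = 0.00398 and an adjusted p = 0.585 in limma over all genes tested, so the difference did not pass. Leaving out 1 library at a time gave log2 fold changes between -1.87 and -1.34.

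The level of SERPINA4 was set beside that of other hepatocyte transcripts in the same libraries. The hepatocyte marker sum was also lower in every HFD library than in every NFD library. Fgb, a fibrinogen chain, was listed at 3857 and 3101 FPKM in NFD replicates 1 and 3. In the other 4 libraries it was at no more than 1.18, so it raised the sum of NFD replicates 1 and 3 only. Without fgb the sum still lay apart by diet, between 3687 and 4649 FPKM in HFD and between 5004 and 6268 in NFD. Without fgb and apoa2, the most abundant marker in HFD, it was between 2020 and 2512 FPKM and between 2526 and 2833. That narrow gap lay between HFD replicate 3 and NFD replicate 3. Fga, another fibrinogen chain, was at 298 FPKM in NFD replicate 3 and between 9.82 and 11.4 in the other libraries. Without fga as well, NFD replicate 3 lies below HFD replicate 3, so the gap rests on fga in that library. The sum without fgb and apoa2 also holds ambp and serpinc1, which are inhibitors described here. Ambp gave 809 FPKM of it in HFD replicate 3 and 849 in NFD replicate 3, and serpinc1 gave 169 and 179. With these inhibitors taken out and fga kept, HFD replicate 3 lies above NFD replicate 3, so the diets overlap. The hepatocyte markers that are not inhibitors described here therefore show no gap once fgb and apoa2 are left out. The part of hepatocyte content in the difference of SERPINA4 was not tested. Of 12 tested hepatocyte markers 9 were lower and 3 higher in HFD, and of all 9204 genes tested 4566 were lower and 4638 higher. The other 7 inhibitor genes with a mean of 10 FPKM or more had HFD means between 0.719 (serpinf2a) and 1.39 (serpinc1) times their NFD means. Ambp and serpinc1 are counted both in the 12 and in the 7.

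A second gene ID with the SERPINA4 name, MSTRG.4613, was between 0.0497 and 0.0976 FPKM in the 6 libraries and was not tested. Between both in the order of gene numbers lies MSTRG.4616, looked at after its values were seen, which carries no gene name beyond ENSONIG00000001186. It was at 96.4, 64.7 and 76.5 FPKM in HFD replicates 1 to 3 and at 109, 79.6 and 121 FPKM in NFD replicates 1 to 3. These libraries overlapped between diets, with a log2 fold change of -0.38 ± 0.26 SE (adjusted p = 0.919, limma). Both SERPINA4 names come with a mark for several copies in the genome, so reads that fit more than 1 copy could be split between them, and which human gene MSTRG.4618 matches best was not analysed here.

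The inhibitors of blood clotting and fibrin breakdown were abundant and did not pass between diets. Antithrombin, serpinc1 (MSTRG.15729), which blocks thrombin and other clotting proteases, was at 321, 287 and 169 FPKM in HFD replicates 1 to 3 and at 207, 172 and 179 FPKM in NFD replicates 1 to 3. HFD replicates 1 and 2 lay above all NFD libraries and HFD replicate 3 below them all. The log2 fold change was 0.43 ± 0.30 SE, with a 95% interval from -0.30 to 1.16 (adjusted p = 0.919, limma). Without HFD replicate 3 it was 0.71, with an unadjusted p = 0.0409 and an adjusted p = 0.996 in limma, and without HFD replicate 1 it was 0.25.

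Heparin cofactor II, serpind1 (MSTRG.18970), which inhibits thrombin when bound to glycosaminoglycans, was at 598, 1029 and 878 FPKM in HFD replicates 1 to 3 and at 786, 586 and 949 FPKM in NFD replicates 1 to 3. Both diets spanned nearly the same range, and the log2 fold change had a 95% interval from -0.67 to 0.87. The antiplasmin gene serpinf2a (MSTRG.31473), whose product stops plasmin from dissolving fibrin, was at 37.4, 37.7 and 27.8 FPKM in HFD replicates 1 to 3 and at 64.4, 38.5 and 40.4 FPKM in NFD replicates 1 to 3. The diets did not overlap, but HFD replicate 2 and NFD replicate 2 differed by less than 1 FPKM and NFD replicate 1 stood well above the others. Its log2 fold change was -0.44 ± 0.28 SE (adjusted p = 0.914, limma), and -0.21 without NFD replicate 1. With the libraries centred on a trimmed mean the diets overlapped for serpinf2a.

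Serpinf1 (MSTRG.31470), the gene next to serpinf2a in the RefSeq gene order of assembly O_niloticus_UMD_NMBU, encodes pigment epithelium-derived factor, a serpin with no known protease target. It was at 17.0, 29.3 and 20.3 FPKM in HFD replicates 1 to 3 and at 22.3, 18.7 and 35.0 FPKM in NFD replicates 1 to 3, with the diets interleaved (95% interval from -0.95 to 0.61). Between serpinf1 and serpinf2a the transcript numbers skip 5 values that are in neither table used here. The second antiplasmin gene, serpinf2b, was between 0.0672 and 0.296 FPKM in all libraries but HFD replicate 3, where it was at 1.11, and was not tested. Its gene ID also carries a wdr81 transcript, at no more than 0.0237 FPKM.

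**Figure D3:**
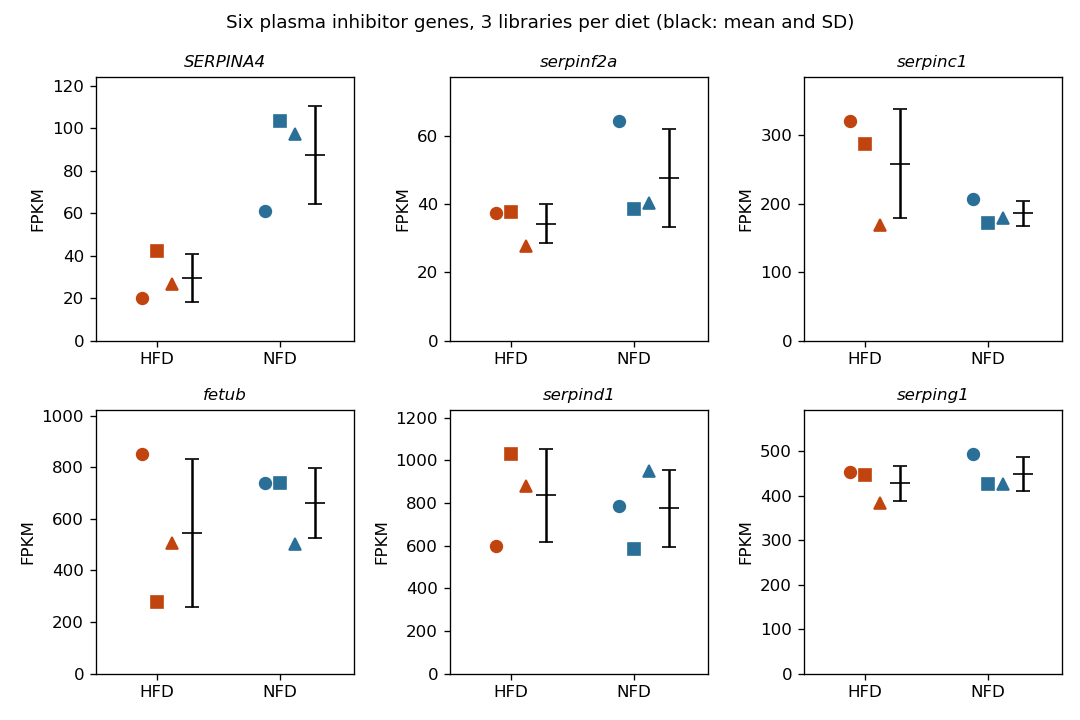
Each panel gives the FPKM of 1 gene on a linear axis from 0, with circles, squares and triangles for replicates 1, 2 and 3, and the mean and SD in black. SERPINA4 and serpinf2a are the panels without overlap between diets, and serping1 has the tightest libraries, between 382 and 493 FPKM.

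C1 inhibitor, serping1 (MSTRG.24189), which holds the first complement proteases and plasma kallikrein, varied least among the 5 most abundant genes. It was at 453, 446 and 382 FPKM in HFD replicates 1 to 3 and at 493, 426 and 426 FPKM in NFD replicates 1 to 3. The log2 fold change was -0.07 ± 0.21 SE with a 95% interval from -0.58 to 0.44, so differences inside that range could not be resolved. Its standard deviation within diets was 0.13 on the log2 scale, against a median of 0.40 over the 167 tested genes with a mean of 100 FPKM or more.

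Thyroxine-binding globulin, serpina7 (MSTRG.10825), a hormone-carrying serpin in mammals that inhibits no protease, was between 3.24 and 7.32 FPKM in HFD and between 5.41 and 8.26 in NFD. Its gene ID also carries a carnmt1 transcript, at 0.995 FPKM in NFD replicate 3 and 0 elsewhere. The value of 8.26 in that library includes it, and the serpina7 transcript alone was at 7.26 there. The libraries overlapped, with a log2 fold change of the gene ID of -0.36 ± 0.32 SE, which was -0.07 without HFD replicate 3 and -0.60 without HFD replicate 1. With the serpina7 transcript alone it was -0.30 ± 0.30 SE.

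Of the bikunin and inter-alpha-trypsin inhibitor family, the light chain gene was very abundant and the heavy chain genes found by name were scarce. The itih names found were itih1, itih2, itih5 and itih6, so any other heavy chain gene was not seen under an itih name. Ambp (MSTRG.9319), the precursor of alpha-1-microglobulin and of bikunin, a Kunitz-type inhibitor, was at 848, 771 and 809 FPKM in HFD replicates 1 to 3 and at 990, 721 and 849 FPKM in NFD replicates 1 to 3. All 3 HFD libraries fell within the range of the NFD libraries, and the log2 fold change had a 95% interval from -0.62 to 0.49. The heavy chain genes found by name, whose products are linked to bikunin by a sugar chain, were far lower. Itih2 (MSTRG.14741) was between 3.82 and 7.28 FPKM in HFD and between 3.63 and 5.20 in NFD, and itih1 (MSTRG.7020) between 1.302 and 1.504 in HFD and between 0.966 and 2.13 in NFD. The log2 fold changes were 0.13 ± 0.28 SE and -0.08 ± 0.25 SE. Itih6 was between 0.282 and 0.482 FPKM, and itih5 was under 0.07 in all libraries but NFD replicate 2, where it was at 2.82; neither was tested.

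Fetuin-B, fetub (MSTRG.23003), a secreted relative of the cystatins that in mice protects the egg coat from a metalloproteinase, was the most variable of the 5 abundant genes. It was at 851, 279 and 507 FPKM in HFD replicates 1 to 3 and at 739, 737 and 504 FPKM in NFD replicates 1 to 3. HFD replicate 1 was the highest library of all and HFD replicate 2 the lowest, a 3.05-fold range. The log2 fold change was -0.40 ± 0.44 SE (95% interval from -1.47 to 0.68), and 0.01 without HFD replicate 2. Of its 3 transcripts, ENSONIT00000013832 held between 92.2% and 96.998% of the FPKM of the gene ID in each library and ENSONIT00000013833 between 2.999% and 7.81%. A second fetub gene ID, MSTRG.23000, was at 0.00133, 0.0815 and 0.0670 FPKM in HFD replicates 1 to 3 and at 0.246, 0.245 and 0.368 FPKM in NFD replicates 1 to 3. All HFD libraries of MSTRG.23000 lay below all NFD libraries, at levels under the filter, so it was not tested.

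**Figure D4:**
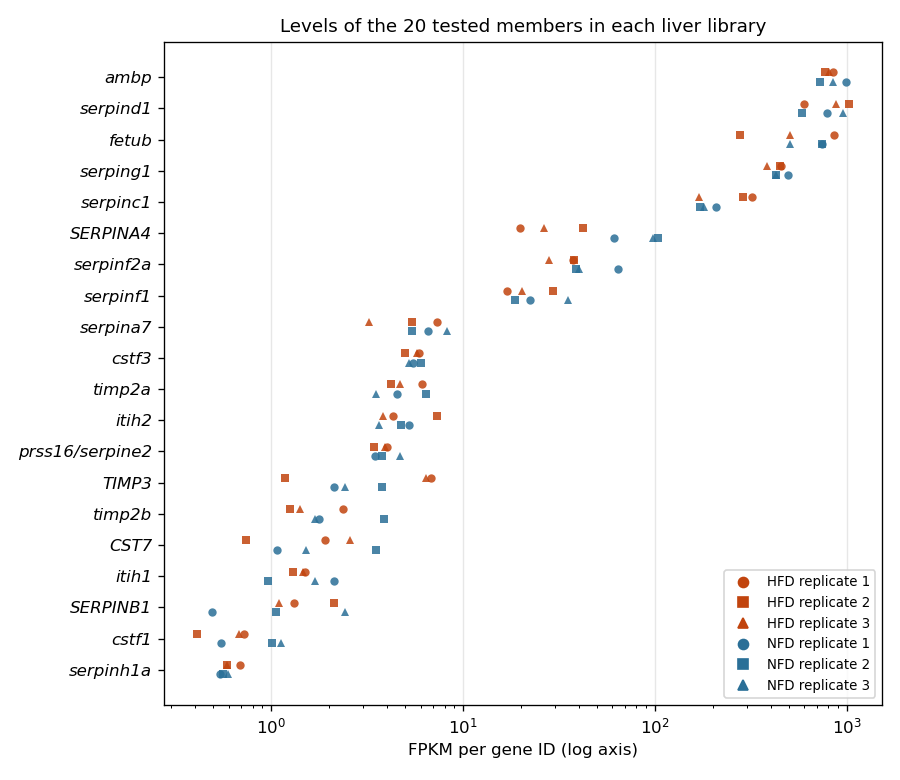
Each row gives 1 of the 20 tested genes and each point its FPKM in 1 library on a log axis, with HFD in orange, NFD in blue and the replicate number by shape. Levels run from about 0.6 FPKM for serpinh1a to the range of ambp, between 721 and 990 FPKM, and the diets separate for SERPINA4 and serpinf2a only.

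The tested TIMP genes, TIMP3, timp2a and timp2b, and the cystatin gene CST7 had overlapping diets at levels of a few FPKM or less. TIMP3 (MSTRG.10272), an inhibitor bound to the extracellular matrix, was at 6.84, 1.17 and 6.39 FPKM in HFD replicates 1 to 3 and at 2.12, 3.76 and 2.43 FPKM in NFD replicates 1 to 3. HFD replicates 1 and 3 lay above all NFD libraries and HFD replicate 2 below them all. The log2 fold change was 0.46 ± 0.60 SE with all libraries (adjusted p = 0.951, limma) and 1.15 without HFD replicate 2 (unadjusted p = 0.00737, adjusted p = 0.768, limma). It was 0.086 without HFD replicate 1 and 0.13 without HFD replicate 3, so its size rests on each HFD library.

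The duplicates of TIMP2, whose product takes part in activating as well as blocking MMP2 in mammals, did not pass either. Timp2a (MSTRG.5864) was between 4.21 and 6.11 FPKM in HFD and between 3.53 and 6.39 in NFD, and timp2b (MSTRG.17756) between 1.25 and 2.36 and between 1.68 and 3.89. Cystatin F, CST7 (MSTRG.31049), an inhibitor of lysosomal cysteine proteases found in mammalian leukocytes, was at 1.91, 0.735 and 2.58 FPKM in HFD replicates 1 to 3 and at 1.07, 3.50 and 1.51 FPKM in NFD replicates 1 to 3. NFD replicate 2 was the highest library for CST7, timp2a and timp2b. The macrophage and granulocyte marker sum was 843 FPKM in NFD replicate 3 and 413 in NFD replicate 2, but lysozyme, LYZ, made up 829 and 398 of these. The other 8 markers summed to between 14.6 and 16.6 FPKM in HFD and between 13.6 and 16.7 in NFD, at 14.3 in NFD replicate 2. In that library 1 of them, cybb, was at its highest (3.34), and csf1ra, the most abundant of them, was at its lowest (4.76). The part of cell content in these levels was not tested. SERPINB1 (MSTRG.23016), which in mammals inhibits neutrophil elastase inside leukocytes, was between 1.104 and 2.13 FPKM in HFD and between 0.491 and 2.44 in NFD.

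The members that missed the filter included several inhibitors of other kinds. The neuronal serpini1 was at no more than 0.140 FPKM. Spint1a and spint2, Kunitz-type inhibitors of membrane-bound serine proteases, were at no more than 0.451 and 0.00371 FPKM, timp4.2 at no more than 0.298 and wfdc1 at no more than 0.0757. SERPINB8 and both CSTA gene IDs were at 0 in every library. Serpine2 shares its gene ID (MSTRG.28473) with the serine protease gene prss16, and its own transcript was at no more than 0.0195 FPKM, so the gene ID passed the filter through prss16.

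The collagen chaperone gene serpinh1a (ENSONIG00000015878) was between 0.587 and 0.689 FPKM in HFD and between 0.544 and 0.599 in NFD. Its standard deviation within diets was the smallest of the 20, at 0.06 on the log2 scale, with a 95% interval of the log2 fold change from -0.31 to 0.45. Adding 0.5 FPKM before the log narrows that spread at the level of serpinh1a. Its duplicate serpinh1b was listed at 0 in the 3 HFD libraries and in NFD replicate 2, and at 0.259 and 0.931 FPKM in NFD replicates 1 and 3, and serpinh2 was at no more than 0.0977. Of the non-inhibitors taken by name, cstf3 (MSTRG.6379) was between 4.995 and 5.997 FPKM in all 6 libraries with a 95% interval from -0.41 to 0.41, cstf1 (ENSONIG00000003227) was between 0.408 and 1.13, and cstf2 was at no more than 0.203. A lncRNA transcript on the gene ID of cstf3, MSTRG.6379.2, was between 2.502 and 3.88 FPKM, and it was the only one in the lncRNA table that shares a gene ID with any of the 38.

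Much of the variation lay between libraries of the same diet. HFD replicate 2 was the lowest library for 7 of the 20 genes, against 20.8% of all genes tested, and these 7 were fetub, TIMP3, timp2b, CST7, cstf1, cstf3 and the gene ID of prss16 and serpine2. In the same library serpind1 and itih2 were at their highest. HFD replicate 3 was the lowest library for 4 genes (serping1, serpinc1, serpinf2a and serpina7) and the highest for none, against 15.04% and 11.46% of all genes. NFD replicate 1 was the lowest library for 2 genes and the highest for 4, against 28.5% and 8.40% of all genes. The main fit did not centre the libraries, and trimmed-mean centring multiplied NFD replicate 1 by 1.12, the largest factor. NFD replicates 2 and 3 held the highest value of 5 genes each, against 23.6% and 21.2% of all genes. The order of the 5 abundant genes changed with the library, with fetub first in HFD replicate 1 and NFD replicate 2, ambp first in NFD replicate 1, and serpind1 first in HFD replicates 2 and 3 and NFD replicate 3. Over the 20 genes the median standard deviation within diets was 0.36 on the log2 scale, against 0.32 over all genes tested.

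**Figure D5:**
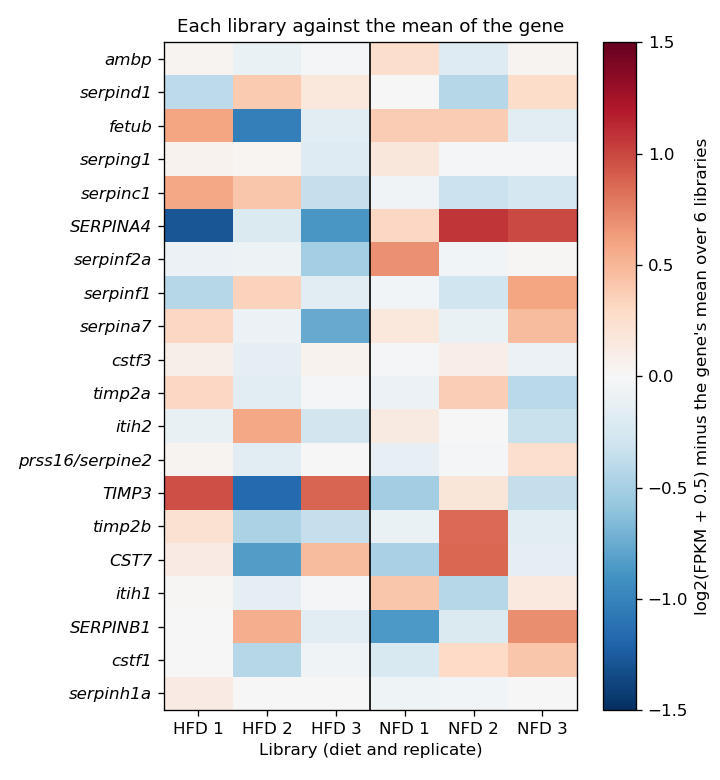
Colours give log2(FPKM + 0.5) of each library minus the mean of the gene over the 6 libraries, for the 20 tested genes in order of level, with the diets parted by a line. SERPINA4 is blue in all 3 HFD libraries and red in all 3 NFD libraries, while fetub, TIMP3 and CST7 have their lowest value in HFD replicate 2.

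Proteases of several classes were examined as lists matched by symbol, and not all of them are targets of these inhibitors. The thrombin gene f2, at 0.108 to 0.841 FPKM, missed the filter and was not tested. Of 6 tested coagulation and fibrinolysis proteases, 0 had an unadjusted p under 0.05, with 2 higher and 4 lower in HFD and a median log2 fold change of -0.10. Of 2 tested complement proteases 0 had one, and of 11 cysteine cathepsins and related lysosomal proteases 0 had one, with a median of -0.06. Of 16 tested metalloproteinases, 2 were lower at an unadjusted p under 0.05 and 0 were higher, where 3.35% and 2.67% of all genes were, with a median of -0.02 and 8 on either side of 0. Of 4 tested membrane-bound serine proteases 1 was lower and 0 higher at that level, and of 8 digestive proteases of the exocrine pancreas 0 were either. Of 9 tested liver transcription factors and acute-phase signalling genes 0 had an unadjusted p under 0.05, with a median of 0.0094. The diets did not overlap, lower in HFD, for 1 of 6 coagulation proteases, 2 of 11 cathepsins and related proteases, 1 of 16 metalloproteinases and 1 of 4 membrane-bound serine proteases. They did not overlap, higher in HFD, for 1 of 2 complement proteases. The coagulation gene was f10, on a gene ID shared with prozb and at 0.436 to 0.626 FPKM. The lysosomal genes were ctsz and ctsd, the latter not a cysteine protease. Among all genes tested 11.6% did not overlap, 5.48% higher and 6.15% lower in HFD, and these lists are too small to set apart from that share. In limma the adjusted p stayed above 0.05 for all genes of these lists.

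In these lists 3 genes had an unadjusted p under 0.05. Mmp15a (MSTRG.13199), a membrane-type metalloproteinase, was at 3.58, 1.37 and 2.97 FPKM in HFD replicates 1 to 3 and at 5.19, 4.76 and 7.51 FPKM in NFD replicates 1 to 3, with no overlap between diets (log2 fold change -1.06 ± 0.35 SE, adjusted p = 0.753, limma). Mmp14b (MSTRG.30966), of the same kind and in mammals an activator of MMP2 together with TIMP2, was at 0.921, 1.61 and 1.16 FPKM in HFD replicates 1 to 3 and at 2.95, 3.21 and 1.47 FPKM in NFD replicates 1 to 3, with HFD replicate 2 above NFD replicate 3. The serine protease gene tmprss2 (MSTRG.17459) was at 2.36, 2.15 and 2.64 FPKM in HFD replicates 1 to 3 and at 4.18, 3.98 and 3.43 FPKM in NFD replicates 1 to 3. These did not overlap, with a log2 fold change of -0.60 ± 0.17 SE (adjusted p = 0.708, limma). Masp2 (MSTRG.9964), a protease of the lectin pathway of complement chosen after its values were seen, was at 6.78, 6.07 and 7.07 FPKM in HFD replicates 1 to 3 and at 5.50, 3.59 and 0.309 FPKM in NFD replicates 1 to 3. All HFD libraries of masp2 lay above all NFD libraries, with a log2 fold change of 1.40 ± 0.73 SE (adjusted p = 0.895, limma).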

How the data were processed

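Liver libraries of tilapia on 2 diets were sequenced, 3 per diet. The deposited tables hold FPKM per transcript, per the file headers, with 33245 transcripts in the mRNA table and 19928 in the lncRNA table. Tools listed without a stated role in the submitters' processing notes are StringTie 1.3.0, HISAT2 2.0.4, edgeR 3.22.3, FastQC 0.10.1 and cutadapt 1.10. Genome build, strand setting and the handling of reads that fit several copies: not given in the sources used here. Transcript numbers next to those of 25 of the 42 transcripts are in neither table. Any reads assigned to them would not be in these values, and whether they belong to the same genes is not known.

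A listed value of 0.0001 was set to 0, and transcripts were summed per gene ID. Log2(FPKM + 0.5) of the 9204 genes with at least 0.5 FPKM in 3 or more libraries was modelled on diet alone in limma 3.58.1 (R 4.3.3; lmFit, then eBayes with a trend). All tests are two-sided, with Benjamini-Hochberg adjustment over all genes tested, at a threshold of 0.05. Fold changes on this scale understate the change of low genes. No count model was used, since FPKM are not counts. Log ratios between libraries of the lowest FPKM values did not gather at single steps (at most 1.21% in a bin of 0.02), so whole reads were not recovered and no counting interval is given. The fit was also run on simulated data with errors drawn independently for each gene and library. Such data hold no mixed RNA and no shift shared by the genes of a library, so they cannot show how these bear on the p-values. Figures were drawn with matplotlib 3.10.9.

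The genes named were the 20 tested members with the highest mean FPKM, any with an unadjusted p under 0.05 or without overlap between diets, and up to 3 genes with an unadjusted p under 0.05 from each protease list. Members that missed the filter are named with their range or highest value, or with each library's value where they duplicate a named gene or a single library stood apart, and masp2 and MSTRG.4616 were named after their values were seen. The members and lists were chosen with earlier results of these data known. Symbols of 28 of the 38 gene IDs matched the RefSeq gene table of assembly O_niloticus_UMD_NMBU, which was used for the order of genes only. The values of 1 untested member are not reported here. No sequences are printed. Alternatives covered pseudocounts of 0.1 and 1, filters, trimmed-mean centring (trim 0.3), the variance prior, the summing of transcripts, a replicate block and leaving out each library in turn.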

Additional observations from a re-analysis of the deposited data

How the results depend on the processing

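SERPINA4, serpinf2a, serpinc1, TIMP3, timp2b, serpina7, serpinh1a and cstf1 kept their sign under every alternative in which they were tested. With the filter raised to 1 FPKM, serpinh1a and cstf1 dropped out and 18 members were tested. No member had an adjusted p under 0.05 in limma in any run, and for SERPINA4 the adjusted p ranged from 0.519 to 0.995. Leaving out 1 library moved the log2 fold change of these 8 within -1.87 to -1.34 (SERPINA4), -0.58 to -0.21 (serpinf2a), 0.25 to 0.71 (serpinc1), 0.086 to 1.15 (TIMP3), -0.61 to -0.071 (timp2b), -0.60 to -0.070 (serpina7), 0.029 to 0.094 (serpinh1a) and -0.52 to -0.19 (cstf1). Signs turned when 1 library was left out for the other 12, whose log2 fold changes then ranged from -0.44 to 0.23 (CST7), -0.12 to 0.67 (SERPINB1), -0.18 to 0.048 (ambp), -0.042 to 0.069 (cstf3), -0.79 to 0.015 (fetub), -0.32 to 0.10 (itih1), -0.12 to 0.30 (itih2), -0.085 to 0.32 (serpind1), -0.14 to 0.043 (serpine2 with prss16), -0.39 to 0.082 (serpinf1), -0.12 to 0.0062 (serping1) and -0.11 to 0.28 (timp2a). The cause was not tested. Leaving out 1 library gave between 0 and 4 genes with an adjusted p under 0.05 (4 without NFD replicate 2), 402 to 596 genes and 1 to 2 members with an unadjusted p under 0.05 (the second being TIMP3 without HFD replicate 2 and serpinc1 without HFD replicate 3), and 3 to 4 members without overlap, where fewer samples make separation easier. With no filter 948 of 21045 genes and 2 of 35 members had an unadjusted p under 0.05, the second being fetub MSTRG.23000, and 4 members did not overlap, since itih5 and that fetub copy were added. With trimmed-mean centring 1 member, SERPINA4, did not overlap. The share of all genes without overlap is given for the main settings only. The counts of members without overlap in other settings therefore have no background beside them. With only transcripts that carry a member name, chosen after seeing the data, 19 members were tested and 1 had an unadjusted p under 0.05.

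No pairing by replicate number was seen. Same-numbered libraries correlated at -0.0052, -0.20 and -0.11 in their deviations from the diet means, and no library correlated best with its own number. Deviations from a mean of 3 libraries are tied to one another, so a weak pairing could be missed. With the replicate block 412 genes and 1 member had an unadjusted p under 0.05, and 0 genes an adjusted p under 0.05 in limma; for SERPINA4 the adjusted p was 0.980 with the block.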
